A study of Danio rerio with 8 samples.

Results

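Adult zebrafish form their blood in the kidney, and this comparison asked which transcripts set the myelomonocytes sorted from that organ apart from whole kidney marrow (WKM) in normal fish. It rests on 4 of the 8 arrays of the series, which are the arrays titled wild-type myelomonocytes (2 arrays) and wild-type WKMs (2 arrays). Both groups came from wild-type fish of 60 days post fertilization with no treatment named in the labels. Each array held the RNA of a sample made from 4 kidneys, and the labels give the samples of a group as independent repeats. They do not say whether same-numbered myelomonocyte and marrow samples came from the same kidneys, and the main fit did not pair them. The whole marrow was sorted without its erythrocytes. Neither the labels nor the files say how the sorting gates were drawn. The other 4 arrays came from the same populations of miR-142-3p double knockout fish. Their spread entered the error of every test. Their levels helped to choose the probe set of each gene and the genes tested, but did not enter the changes given here.

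Myelomonocytes are the cells of the granulocyte and monocyte lineages. Neutrophils carry granules of peroxidase, lysozyme and proteases, move along gradients of chemoattractants, and make reactive oxygen and lipid mediators. Monocytes and macrophages depend on the M-CSF receptor and on the transcription factor Irf8, and take up and present material from other cells. Whole kidney marrow holds these same cells together with lymphocytes, precursor cells and erythroid precursors, so it is a mixture that contains the sorted cells and is not a separate tissue. In such bulk samples fewer cells of a type and less RNA per cell cannot be told apart.

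RNA was hybridised to 1-colour Affymetrix whole-transcript arrays. Values are log2 levels of 1 probe set per gene, and a change is the mean log2 level in myelomonocytes minus that in marrow, with the standard error of the fit (SE, 2 arrays per group). Of 13774 genes tested with limma, 4900 (35.6%) differed at an adjusted p under 0.05. In myelomonocytes 2134 genes were higher, which is 15.5% of those tested, and 2766 were lower, which is 20.1%. Counts for the gene groups below read against these shares. The larger changes ran mainly downward. By at least 2-fold, 181 genes were higher (1.31%) and 679 lower (4.93%), and by at least 4-fold 2 and 124. By at least 8-fold, 34 genes were lower and 0 higher. The 2 genes higher by at least 4-fold were noctb and tnfsf18. The median change over all genes tested was 0.00. The split of all calls between the directions moved with the scaling, to 3039 higher and 2182 lower after quantile normalization, which moved the median of all genes to 0.09. Whether a change near that size counts as higher or lower therefore depends on the scaling.

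**Figure D1:**
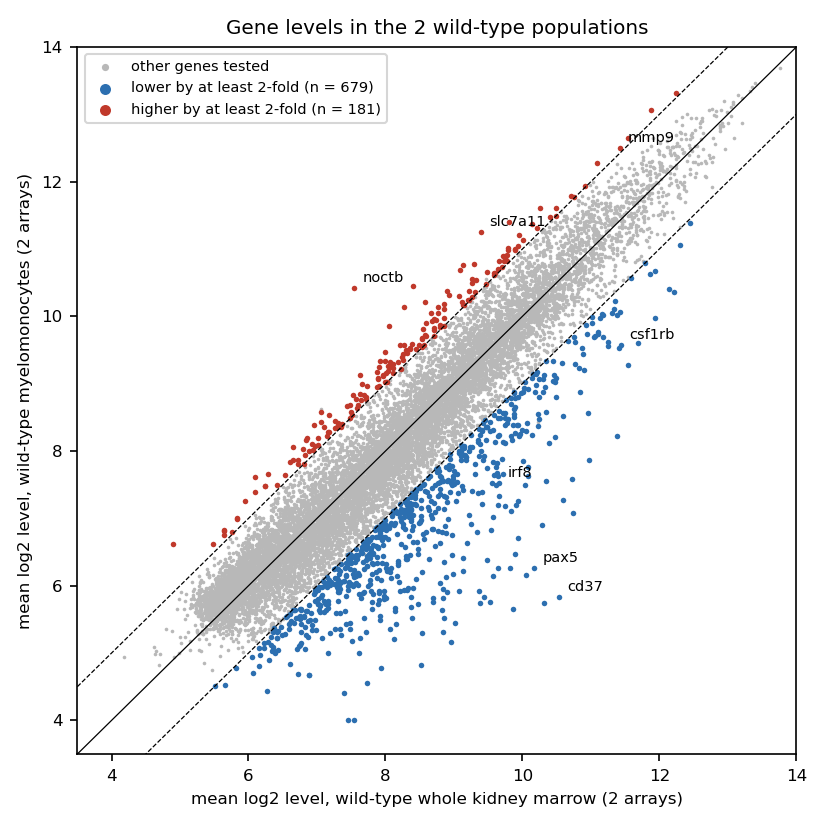
Mean log2 level of each tested gene in wild-type whole kidney marrow (horizontal axis) and in wild-type myelomonocytes (vertical axis), over 2 arrays each. Grey points are genes not called or called by less than 2-fold, blue points are the 679 called lower by at least 2-fold in myelomonocytes, and red points are the 181 called higher by at least 2-fold. Dashed lines mark 2-fold, and the blue points reach much further from the diagonal than the red ones.

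The replicate arrays of each population correlated at r = 0.992 across genes, and arrays of the different populations at 0.941 to 0.946. These correlations run over genes, which are no replicates of a sample. The labels give the samples as independent repeats, each a pool, so p-values measure the spread between pools and not between fish. Leaving out any array left its group with 1 sample, which was then assumed to vary like the other groups, and the number of genes called fell to 3371 and 2950 without myelomonocyte replicates 1 and 2, and to 3024 and 3099 without marrow replicates 1 and 2.

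The sorted cells carried the defining transcripts of neutrophils, and most of the neutrophil list was higher than in marrow, by modest amounts. Of 20 neutrophil markers tested, 17 were higher and 0 lower, with a median change of 0.56 beside 0.00 for all genes. cxcr1, a receptor for the chemokine Cxcl8, read 12.60 and 12.69 in the 2 myelomonocyte arrays and 11.40 and 11.69 in the 2 marrow arrays, a change of 1.1 ± 0.13 (adjusted p = 0.000644). The gelatinase mmp9 read 12.53 and 12.46 against 11.31 and 11.52, a change of 1.08 ± 0.11. The groups did not overlap for either gene. Over all 13774 genes tested, the myelomonocyte arrays lay above the marrow arrays in 4996, below them in 5109, and overlapped them in 3669. Separation of the arrays alone therefore says little about a gene. cfl1l, a cofilin-like actin-severing protein, was 2.08-fold higher, the membrane protease adam8a 1.57-fold and the collagenase mmp13a 1.47-fold. mpx, the myeloperoxidase that defines zebrafish neutrophils, was higher by 0.34 ± 0.09, from 12.72 and 12.73 to 13.05 and 13.09, but this call was lost on leaving out any 1 of the 4 arrays (adjusted p up to 0.0935). lyz, lysozyme, read 13.28 and 13.30 in myelomonocytes and 13.16 and 13.14 in marrow, a difference of 0.14 ± 0.09 that did not pass (adjusted p = 0.240). Both probe sets lie near the highest value of the 8 arrays, which was 13.76.

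The monocyte and macrophage markers had no common direction, and those with the largest called changes were lower in the sorted cells. Of 19 tested, 3 were higher and 4 lower (1 higher without myelomonocyte replicate 1, 0 higher without marrow replicate 1), and the median change was 0.00. irf8, the transcription factor that zebrafish need to make macrophages, read 7.49 and 7.56 in myelomonocytes and 9.78 and 9.53 in marrow, 4.38-fold lower (-2.13 ± 0.29, adjusted p = 0.00123). csf1rb, an M-CSF receptor, was 3.66-fold lower, at 9.53 and 9.60 against 11.40 and 11.48. mpeg1.1, the perforin-like protein of macrophages, changed by -1.35 ± 0.22 and c1qb, a chain of complement C1q, by -1.12 ± 0.21. In each of these 4 genes both myelomonocyte arrays lay below both marrow arrays, as in 5109 of all 13774 genes tested. The other M-CSF receptor csf1ra differed by -0.42 ± 0.17, mfap4.1 by -0.97 ± 0.33 and c1qa by -0.29 ± 0.14, which did not pass (adjusted p = 0.0843, 0.0545 and 0.145). In the opposite direction, the cathepsin gene ctss2.1 was higher by 0.63 ± 0.14 and mpeg1.2, a second perforin-like gene, by 0.58 ± 0.15. The call of ctss2.1 was lost on leaving out myelomonocyte replicate 1 or marrow replicate 1 (adjusted p up to 0.0713) and that of mpeg1.2 on leaving out myelomonocyte replicate 1, marrow replicate 1 or marrow replicate 2 (adjusted p up to 0.0961).

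Of 5 eosinophil and mast cell markers, 1 was called (4 higher after quantile normalization), the lipoxygenase alox12 at 0.76 ± 0.09. cpa5, the carboxypeptidase that marks zebrafish mast cells, differed by 0.25 ± 0.09, eslec by 0.24 ± 0.09 and gata2a by 0.59 ± 0.22, with adjusted p = 0.0546, 0.0727 and 0.0662. Set against the label, the sorted cells held the granulocyte transcripts. Genes of the monocyte list were bright in them too, with mpeg1.1 at 9.55 and 9.87 and csf1rb at 9.53 and 9.60. Against marrow, the monocyte list as a whole had no direction.

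**Figure D2:**
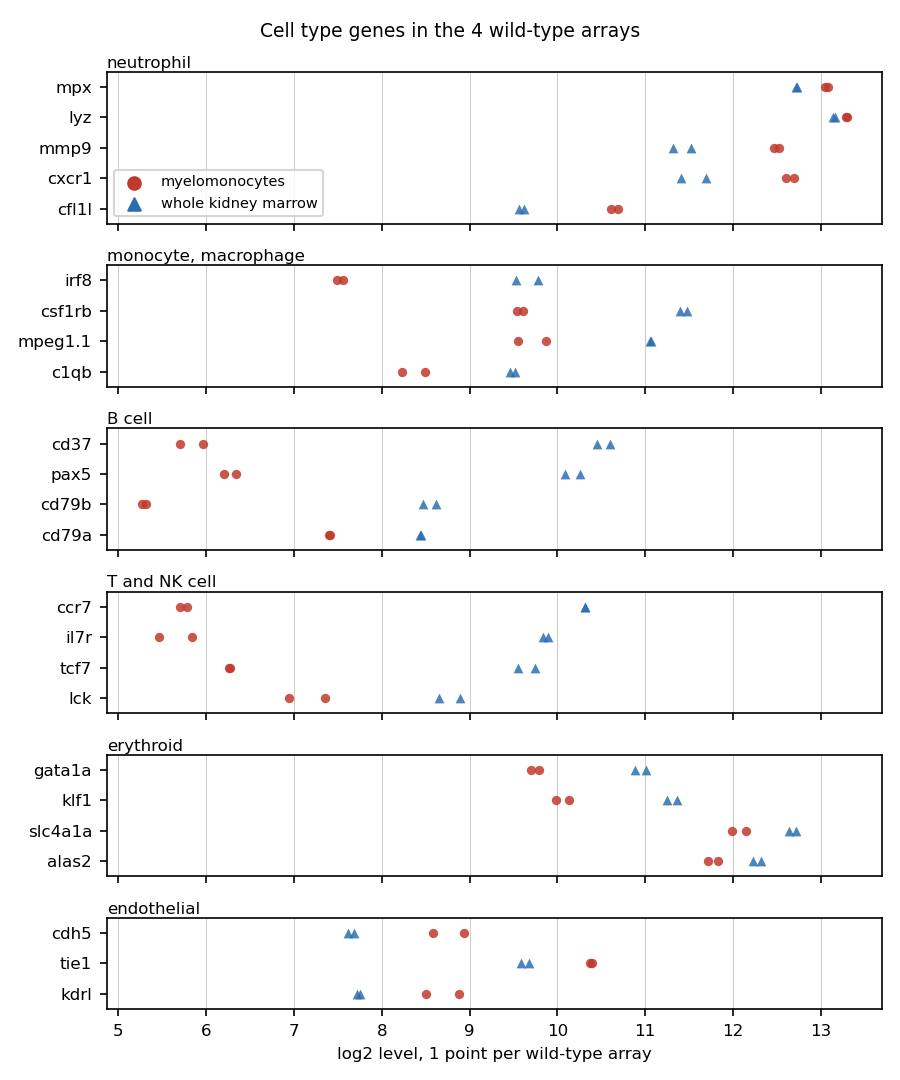
Log2 level of defining and leading genes of 6 cell types in each of the 4 wild-type arrays (red circles, 2 myelomonocyte arrays; blue triangles, 2 whole kidney marrow arrays). Neutrophil genes sit slightly to the right in myelomonocytes, irf8, csf1rb and mpeg1.1 sit to the left, and the lymphocyte genes are separated by several log2 units.

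Lymphocyte genes gave the largest differences of the comparison. Of 11 B cell markers tested, 10 were lower in myelomonocytes and 1 higher, and 7 of the 10 were lower by at least 2-fold (median -3.25). cd37, a tetraspanin of B cells, read 5.70 and 5.96 against 10.60 and 10.45, which is 26.0-fold lower (-4.70 ± 0.15, adjusted p = 1.11e-05). pax5, the transcription factor that commits cells to the B lineage, read 6.20 and 6.33 against 10.26 and 10.09 and was 15.0-fold lower. ebf1a, which acts with Pax5, changed by -3.43 ± 0.14. swap70a, a signalling adaptor of B cells in mice, changed by -3.91 ± 0.28 and cxcr5, the receptor that guides B cells to follicles in mammals, by -3.33 ± 0.23. Of the antigen receptor chains, cd79b changed by -3.25 ± 0.19 and cd79a by -1.04 ± 0.15. The myelomonocyte mean of cd79b was below 5.52, the level used for dim genes, so background may hide part of its change. The wild-type myelomonocyte arrays of cd37 and cxcr5 lay near that level, and their knockout myelomonocyte arrays lay below it. Background may therefore hide part of these 2 changes as well. cd79b, cd37 and cxcr5 passed the filter on dim genes only through the marrow arrays, where they were high.

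T and NK cell genes moved the same way. Of 18 tested, 17 were lower, 15 of them by at least 2-fold, and 1 was higher (median -2.02). ccr7, the homing receptor of naive T cells, read 5.70 and 5.78 in myelomonocytes and 10.32 and 10.32 in marrow, 23.9-fold lower (adjusted p = 1.93e-05). il7r, the interleukin 7 receptor, read 5.46 and 5.84 against 9.89 and 9.84 and was 18.5-fold lower. il2rb, a receptor chain of T and NK cells, changed by -3.32 ± 0.20, and the transcription factors tcf7 and tbx21 by -3.37 ± 0.14 and -3.10 ± 0.17. The co-receptor cd4-1 changed by -2.54 ± 0.11, and of the T cell receptor kinases zap70 changed by -1.80 ± 0.10 and lck by -1.62 ± 0.20. zap70 read 5.61 and 5.62 in wild-type myelomonocytes, near the dim level, and 5.32 and 5.22 in knockout myelomonocytes. It passed the filter on dim genes only through the marrow arrays, where it was high. sh2d1ab, the adaptor of SLAM receptors, changed by -2.55 ± 0.12.

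The genes of antigen receptor rearrangement, which mark lymphoid precursors, were among them. rag2 read 5.53 and 5.97 in myelomonocytes and 9.39 and 9.36 in marrow, 12.4-fold lower (adjusted p = 2.48e-05), rag1 changed by -2.81 ± 0.15 and dntt, the terminal transferase, by -1.86 ± 0.15. ikzf1, shared by lymphoid and myeloid cells, differed by 0.12 ± 0.13 and did not pass (adjusted p = 0.515). In all, 4 of 5 precursor markers were lower, of which il7r also belongs to the T cell list. Among 24 lymphoid transcription factors 17 were lower and 5 higher (3 higher without marrow replicate 1), with irf4a at -2.72 ± 0.17 and tox2 at -1.86 ± 0.11. Those higher included prdm1a at 1.64 ± 0.20, a repressor that ends B cell identity in plasma cells. Of 28 genes of antigen receptor signalling 15 were lower and 5 higher (3 higher without marrow replicate 1, 2 higher without marrow replicate 2), among the lower ones themis at -1.99 ± 0.16, the kinase prkcq at -2.14 ± 0.18 and the exchange factor vav3b at -1.57 ± 0.14. The myelomonocyte mean of vav3b lay below the level used for dim genes, and vav3b passed that filter only through the marrow arrays, where it was high.

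MHC class II presentation, used by B cells, monocytes and dendritic cells, was lower in the sorted cells in 5 of 7 genes tested and higher in 1 (3 lower without marrow replicate 1). ciita, the master regulator of class II genes, read 7.11 and 7.30 against 9.60 and 9.68, a change of -2.44 ± 0.17 (adjusted p = 9.02e-05). The invariant chain genes cd74b and cd74a changed by -1.25 ± 0.13 and -0.84 ± 0.15. mhc2dgb, a class II chain of a family whose members may share probes, changed by -2.16 ± 0.47, with myelomonocyte arrays at 8.68 and 7.03. Its call was lost on leaving out marrow replicate 1. Its 4 knockout arrays lay in the dim range (3.95 to 4.59), so mhc2dgb passed the filter only through the wild-type arrays. The SE pools these knockout arrays, whose pairs lay closer together than the wild-type pairs, so it may understate the wild-type spread. MHC class I presentation differed less, with 5 of 22 genes lower and 0 higher (3 lower without myelomonocyte replicate 2 or marrow replicate 2). Among them were the trimming peptidase erap1b at -0.76 ± 0.13, the immunoproteasome subunit psmb12 at -0.85 ± 0.16 and the proteasome activator psme2 at -0.48 ± 0.10.

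Erythroid genes were lower in myelomonocytes but still bright. Of 24 tested, 20 were lower and 0 higher, with a median of -0.83 and 8 at 2-fold or more. gata1a, the erythroid master regulator, read 9.79 and 9.70 against 11.01 and 10.88, 2.30-fold lower. The transcription factors tal1 and klf1 changed by -1.47 ± 0.14 and -1.25 ± 0.14, the transferrin receptor tfr1a by -1.07 ± 0.11 and the erythropoietin receptor epor by -1.05 ± 0.12. slc4a1a, the red cell anion exchanger, read 11.99 and 12.14 in myelomonocytes and 12.64 and 12.72 in marrow, so both populations were far above the dim level. alas2, the erythroid enzyme that starts haem synthesis, changed by -0.50 ± 0.11, a call lost on leaving out myelomonocyte replicate 1 or marrow replicate 2 (adjusted p up to 0.0588). The haem pathway outside this list followed, with ppox at -1.67 ± 0.18, hmbsb at -1.43 ± 0.16 and urod, which is in both lists, at -1.49 ± 0.17. Of 29 iron and haem genes 15 were lower and 3 higher. The metalloreductase steap3 changed by -1.33 ± 0.14, while slc40a1, the iron exporter ferroportin, was higher at 11.20 and 11.17 against 10.37 and 10.30 (0.85 ± 0.10, adjusted p = 0.000671).

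Thrombocyte genes went both ways, with 6 of 15 lower and 4 higher. The integrin chains itga2b and itgb3b, which form the fibrinogen receptor, changed by -1.75 ± 0.20 and -1.76 ± 0.21, and gfi1b changed by -1.36 ± 0.14. The myelomonocyte mean of itgb3b lay below the level used for dim genes, and itgb3b passed that filter only through the marrow arrays. In contrast itgb3a, the other zebrafish copy of the beta chain, was higher by 1.00 ± 0.09 and the coagulation factor f5 by 1.03 ± 0.14. gp1bb, a chain of the receptor for von Willebrand factor, changed by -0.59 ± 0.17, a call lost on leaving out myelomonocyte replicate 2, marrow replicate 1 or marrow replicate 2 (adjusted p up to 0.157). Of 13 stem and progenitor markers 7 were lower and 5 higher (2 higher with any 1 of the 4 arrays left out). meis1b changed by -1.50 ± 0.19, gata2b by -1.41 ± 0.20, mllt3 by -1.30 ± 0.14 and lmo2 by -0.97 ± 0.15, while erg was higher by 0.81 ± 0.12. myb read 11.55 and 11.37 against 11.79 and 11.89, and its call at -0.37 ± 0.11 was lost on leaving out myelomonocyte replicate 2, marrow replicate 1 or marrow replicate 2 (adjusted p up to 0.166).

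Markers of cells outside the blood lineages were also compared, counting only those that passed the filter on dim genes. Of 23 endothelial genes, 10 were higher in myelomonocytes and 0 lower (median 0.72, 4 to 6 higher with any 1 of the 4 arrays left out). cdh5, the cadherin of endothelial junctions, read 8.93 and 8.59 against 7.69 and 7.61, 2.16-fold higher (adjusted p = 0.00425), tie1 changed by 0.75 ± 0.10, mrc1a by 1.03 ± 0.20 and plvapb by 0.88 ± 0.18. kdrl, the VEGF receptor used as an endothelial marker, was higher by 0.96 ± 0.31, a call lost on leaving out any 1 of the 4 arrays or with no filter on dim genes (adjusted p up to 0.186). Of 24 kidney tubule and podocyte genes, 2 were higher and 1 lower (4 higher without myelomonocyte replicate 1, 4 higher after quantile normalization), with slc12a1, a salt transporter of the tubule, at 0.92 ± 0.15 and the chloride channel clcnk at 0.67 ± 0.12. cdh17, the tubule cadherin, read 10.23 and 10.65 against 9.98 and 10.09 and did not pass (adjusted p = 0.143). Of 14 stromal genes, 3 were higher (0 to 1 higher with any 1 of the 4 arrays left out), among them the chemokine cxcl12a at 0.56 ± 0.16, a call lost on leaving out any 1 of the 4 arrays (adjusted p up to 0.137). The fibroblast genes pdgfra and col1a1a differed by 0.25 ± 0.12 and 0.15 ± 0.15 and did not pass. Of 6 pigment cell genes 2 were higher and 1 lower (0 higher without marrow replicate 1), and dct at 0.61 ± 0.13 lost its call on leaving out myelomonocyte replicate 1 or marrow replicate 1 or with the mean of the probe sets of a gene (adjusted p up to 0.0671). The part of such cells in the other differences was not tested. The summed linear level of the endothelial list ran from 6336 to 7417 in myelomonocytes and from 4441 to 4459 in marrow, and that of the kidney list from 7731 to 9358 and from 6597 to 6813 (arbitrary units of the array).

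**Figure D3:**
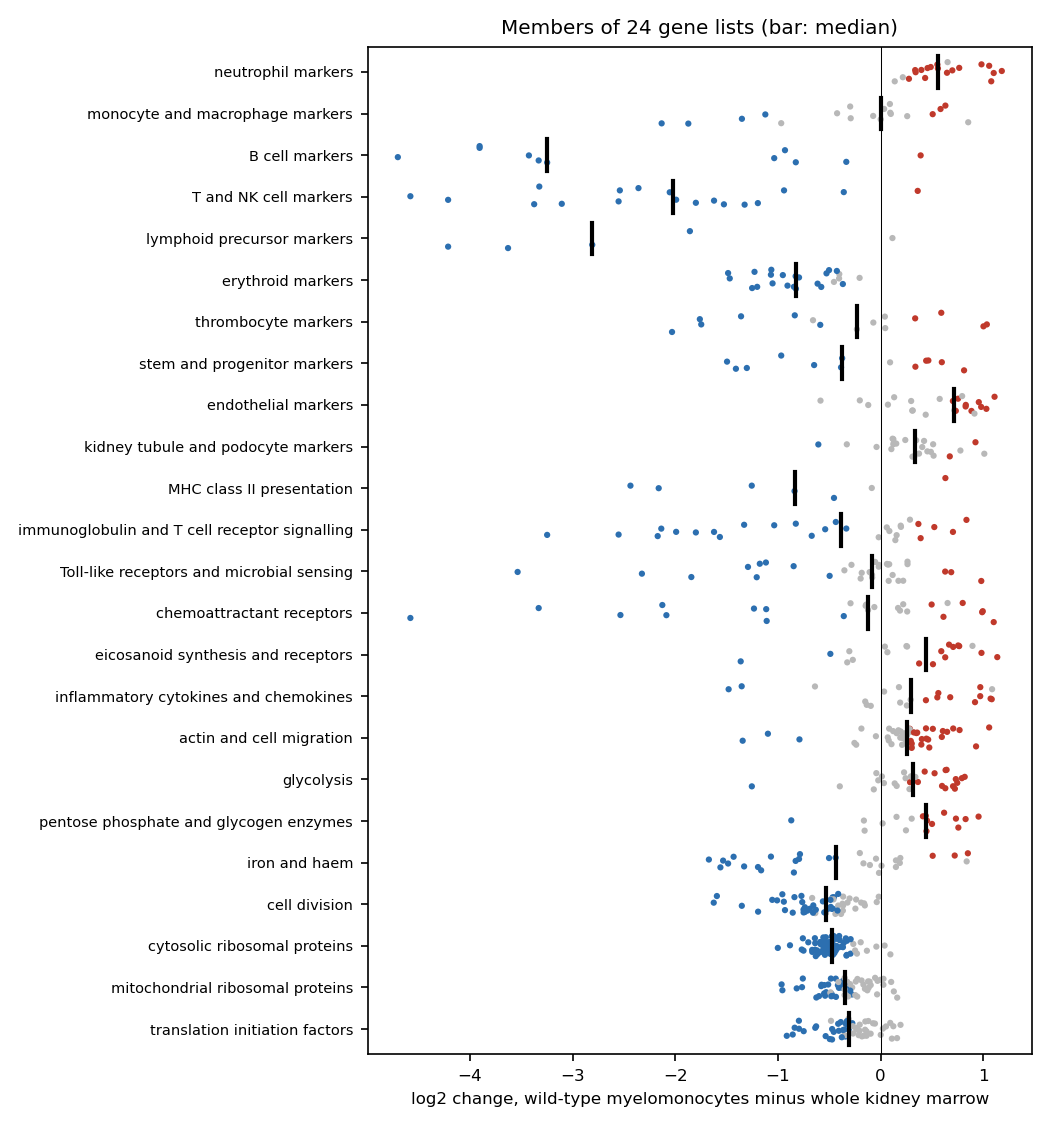
Log2 change (wild-type myelomonocytes minus wild-type whole kidney marrow) of every tested member of 24 gene lists. Red and blue points are members called higher and lower, grey points are members not called, and the black bar is the median of the list. The medians of the lymphocyte lists lie furthest to the left, those of the ribosomal, initiation factor and cell division lists lie to the left by less than 1 log2 unit, and those of the neutrophil, endothelial, glycolysis and glycogen lists lie to the right.

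Among the effector genes of phagocytes, secreted and membrane proteases were more often higher than lower. Of 22 protease and inhibitor genes, 9 were higher and 3 lower (1 to 2 lower with any 1 of the 4 arrays left out, 14 higher, 1 lower after quantile normalization). Besides mmp9, mmp13a and adam8a, its copy adam8b changed by 0.64 ± 0.09 and adam28 by 0.94 ± 0.16, while the metalloproteinase inhibitor timp2a changed by -1.11 ± 0.12. Of 28 lysosomal genes 7 were higher and 2 lower (3 to 5 higher with any 1 of the 4 arrays left out). scarb2a, a lysosomal membrane protein, was higher by 0.82 ± 0.10 and the ceramidase asah1a by 0.73 ± 0.15, and the cathepsin gene ctsbb was 4.38-fold lower, at 6.37 and 6.82 against 8.68 and 8.77. Of the 5 measured NADPH oxidase genes, the regulatory subunits ncf4 and ncf1 were higher by 0.47 ± 0.09 and 0.34 ± 0.09. The membrane subunits cybb and cyba and the GTPase rac2 differed by 0.05 ± 0.11, 0.28 ± 0.11 and 0.26 ± 0.09 and did not pass. The call of ncf1 was lost on leaving out any 1 of the 4 arrays (adjusted p up to 0.126).

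Genes that make lipid mediators were more often higher than lower. Of 20 eicosanoid genes, 10 were higher and 2 lower (median 0.44, 0 lower without marrow replicate 1). pla2g4ab, a phospholipase that releases arachidonic acid, read 9.79 and 9.56 against 8.70 and 8.37, 2.2-fold higher (adjusted p = 0.000701). alox5a, the 5-lipoxygenase that begins leukotriene synthesis, was higher by 0.67 ± 0.09 and its activating protein alox5ap by 0.77 ± 0.09. The cyclooxygenase ptgs2b changed by 0.71 ± 0.10 and hpgd, which inactivates prostaglandins, by 0.98 ± 0.10. The receptor ptafr, which binds platelet-activating factor, was 1.98-fold higher.

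Receptors that sense microbes and chemoattractants divided between the populations. Among 31 genes of microbial sensing, 9 were lower in myelomonocytes and 3 higher. Both flagellin receptors were higher, tlr5a at 10.50 and 10.35 against 9.50 and 9.39 (0.98 ± 0.11) and tlr5b by 0.69 ± 0.10. The receptors of microbial DNA were lower, tlr9 at 5.21 and 5.40 against 8.98 and 8.70, 11.6-fold, and tlr21 with a change of -2.32 ± 0.13. tlr8b, of the family that senses RNA, changed by -1.84 ± 0.22 and the signalling factor nfkb2 by -1.18 ± 0.12. tlr20.2, a fish Toll-like receptor, changed by -3.44 ± 0.16. The myelomonocyte arrays of tlr9 and tlr20.2 lay below the level used for dim genes in both genotypes. These 2 genes therefore passed the filter on dim genes only through the marrow arrays, where they were high. Of 25 chemoattractant receptors 6 were higher and 9 lower. Lower genes besides ccr7 and cxcr5 included cxcr4a at -2.53 ± 0.20 and cxcr3.1 at -2.13 ± 0.22, and those higher included cxcr1 and ptafr. The myelomonocyte mean of cxcr3.1 was in the dim range in both genotypes. cxcr3.1 therefore also passed the filter on dim genes only through the marrow arrays, where it was high.

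Of 35 cytokine receptors 13 were lower and 8 higher (4 to 5 higher with any 1 of the 4 arrays left out). The common gamma chain gene il2rgb changed by -1.86 ± 0.19 and tnfrsf21 by -1.48 ± 0.18. ifngr1, which encodes part of the receptor for interferon gamma, was 2.67-fold higher in myelomonocytes, at 8.34 and 7.79 against 6.74 and 6.55 (adjusted p = 0.000913). Of 37 inflammatory cytokine and chemokine genes with a probe set, 21 were bright enough to test, and of these 9 were higher and 2 lower (5 higher without marrow replicate 1). csf3b, a granulocyte colony-stimulating factor, was higher by 1.08 ± 0.20, acod1, the itaconate-making enzyme of activated phagocytes, by 0.97 ± 0.13 and tgfb1b by 0.55 ± 0.09. The chemokine ccl34a.4 changed by -1.48 ± 0.17 and ifng1, an interferon gamma gene, by -1.35 ± 0.16, from marrow arrays at 5.95 and 6.37 to a myelomonocyte mean in the dim range. ifng1 passed the filter on dim genes only with the knockout arrays counted, and the filter over the 4 wild-type arrays set it aside. The interferon-stimulated genes showed no common direction, with 3 of 23 higher and 5 lower (3 lower without myelomonocyte replicate 2 or marrow replicate 2). helz2a was higher by 1.03 ± 0.12, while parp9 changed by -0.89 ± 0.09 and ifit12 by -0.58 ± 0.10.

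Enzymes of glycolysis and of glycogen use were more often higher than lower in the sorted cells. Of 30 glycolysis genes, 15 were higher and 1 lower (median 0.32, 9 higher without myelomonocyte replicate 1 or marrow replicate 1). hk2, the hexokinase that starts the pathway, read 11.11 and 11.25 against 10.31 and 10.41, 1.76-fold higher (adjusted p = 0.00178). gapdh changed by 0.79 ± 0.10, aldocb by 0.75 ± 0.12 and the phosphofructokinase pfkpb by 0.71 ± 0.10, while pfkma, the muscle-type copy, changed by -1.25 ± 0.20. The lactate transporters slc16a3a and slc16a3b were higher by 0.72 ± 0.11 and 1.48 ± 0.15. Of 17 pentose phosphate and glycogen enzymes 10 were higher and 1 lower (median 0.44). pgm1, which links glycogen to glycolysis, changed by 0.95 ± 0.12, the branching enzyme gbe1b by 0.83 ± 0.10 and the glycogen phosphorylase pygb by 0.73 ± 0.10. The transketolase tkta changed by 0.62 ± 0.11, and ugp2a, which makes UDP-glucose, changed by -0.87 ± 0.12.

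Genes of amino acid use included some of the larger rises, and redox enzymes changed by less. slc7a11, which imports cystine in exchange for glutamate, read 11.12 and 11.39 in myelomonocytes and 9.14 and 9.66 in marrow, 3.62-fold higher (adjusted p = 0.000507). arg2, the arginase of mitochondria, was higher by 1.86 ± 0.43, but the marrow arrays read 7.75 and 8.80 and its call was lost on leaving out myelomonocyte replicate 2 or marrow replicate 1 (adjusted p up to 0.0780). slc25a15a, the mitochondrial ornithine carrier, was higher by 1.61 ± 0.16, the arginine transporter slc7a3a by 0.61 ± 0.10, the spermine synthase sms by 0.67 ± 0.10 and sat1a.1, which acetylates polyamines, by 0.80 ± 0.09. shmt2, an enzyme of one-carbon metabolism, changed by -0.87 ± 0.14 and the transporter chain slc3a2a by -0.93 ± 0.14. Of 30 genes of this list 10 were higher and 6 lower (3 lower without myelomonocyte replicate 2). Of 27 redox enzymes 6 were higher and 6 lower (2 to 5 higher and 3 lower with any 1 of the 4 arrays left out), and the peroxiredoxins went opposite ways, prdx1 at 0.60 ± 0.11 and prdx2, abundant in red cells, at -0.88 ± 0.16. The mitochondrial prdx3 changed by -0.83 ± 0.11 and the quinone reductase nqo1 by 0.85 ± 0.11. slc26a2, a sulphate transporter, and papss2a, which makes the donor for sulphation, were higher by 1.38 ± 0.18 and 1.41 ± 0.13.

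Genes of cell division were lower in the sorted cells where they were called. Of 55 cell division genes, 33 were lower and 0 higher (median -0.53, 17 lower without myelomonocyte replicate 2 or marrow replicate 1). cdk6, a kinase of G1, read 9.56 and 9.67 against 11.38 and 11.11, 3.08-fold lower (adjusted p = 9.02e-05), and its partner ccnd1 changed by -1.59 ± 0.13. ccne2 changed by -1.35 ± 0.19, the replication helicase subunit mcm7 by -1.01 ± 0.12 and the mitotic transcription factor foxm1 by -0.96 ± 0.13. The genes myca and mycb, which drive growth, changed by -2.02 ± 0.12 and -1.64 ± 0.11.

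The machinery of protein synthesis was lower by smaller amounts across many genes. Of 67 cytosolic ribosomal protein genes 59 were lower and 0 higher (36 lower without myelomonocyte replicate 2, 37 lower without marrow replicate 2), with changes from -1.0 to 0.10 and a median of -0.47. rps12 read 9.44 and 9.24 against 10.34 and 10.35, a change of -1.0 ± 0.13, and rps18 and rpl36 changed by -0.75 ± 0.09 and -0.70 ± 0.10. The median stayed below 0 under both scalings, at -0.43 after quantile normalization and -0.46 after centring. Of 65 mitochondrial ribosomal protein genes 29 were lower and 0 higher (median -0.35, 9 to 21 lower with any 1 of the 4 arrays left out, 17 lower after quantile normalization), with mrpl43 at -0.96 ± 0.12. Of 58 genes of initiation factors 26 were lower and 0 higher (median -0.31, 12 to 14 lower with any 1 of the 4 arrays left out), with eif3eb at -0.80 ± 0.09 and eif2s1b at -0.75 ± 0.10. Other constitutive machinery moved less. Of 44 proteasome genes 9 were lower and 0 higher (median -0.17, 2 to 5 lower with any 1 of the 4 arrays left out), with psmd10 at -1.14 ± 0.12. Of 87 oxidative phosphorylation genes 8 were lower and 2 higher (median -0.09, 0 higher and 1 to 2 lower with any 1 of the 4 arrays left out, 5 lower after quantile normalization). Of 46 genes of folding and secretion in the endoplasmic reticulum 2 were higher and 1 lower (5 higher after quantile normalization), with pdia2 at 0.61 ± 0.09 and dnajb9a at -0.93 ± 0.15.

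Cytoskeletal and trafficking genes were more often higher than lower. Of 51 actin and migration genes 21 were higher and 3 lower (median 0.26, 8 to 10 higher with any 1 of the 4 arrays left out). myh9a, the heavy chain of non-muscle myosin, was 1.90-fold higher (adjusted p = 0.000380), and vaspa, which extends actin filaments, changed by 0.77 ± 0.11. zyx, an adhesion protein, changed by 0.61 ± 0.11 and tmsb, a thymosin that binds actin monomers, by -1.34 ± 0.17, with the myelomonocyte mean of tmsb in the dim range. Of 64 Rab genes 14 were higher and 4 lower (8 to 11 higher with any 1 of the 4 arrays left out), and rab27a, a GTPase of granule release, was higher at 11.25 and 11.36 against 10.34 and 10.56 (0.86 ± 0.11). rab11bb, of recycling endosomes, changed by 0.80 ± 0.09, rab32a by 0.75 ± 0.10 and rab3db, of secretory vesicles, by 0.88 ± 0.12. Of 21 integrin genes tested 6 were higher and 7 lower. The fibronectin and vitronectin receptor chain itgav changed by 0.85 ± 0.10 and the beta chain itgb1a by -1.32 ± 0.12. s100z, a calcium-binding S100 protein, was 2.50-fold higher at 10.24 and 10.13 against 8.94 and 8.78, the 1 call among 8 S100 genes tested. Of 10 annexins, which bind membranes in the presence of calcium, 4 were called lower and 1 higher, while 6 lay above 0 (median 0.08). Those lower included anxa5b at -2.67 ± 0.34 and anxa1a at -1.13 ± 0.13. The keratin gene krt18b changed by -1.73 ± 0.16 and krt8 by -0.69 ± 0.11. Of 31 keratin and claudin genes tested 8 were higher and 5 lower (2 to 5 higher with any 1 of the 4 arrays left out), with the claudins cldng at -2.47 ± 0.19 and cldn15lb at 0.99 ± 0.16.

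Transcription factors of the myeloid list did not move as a group. Of 28 tested, 5 were higher and 6 lower (median 0.10, 3 higher without myelomonocyte replicate 1 or marrow replicate 1). nfil3, a bZIP repressor that also feeds back on the clock, read 10.54 and 10.97 in myelomonocytes and 8.84 and 9.43 in marrow, 3.07-fold higher (adjusted p = 0.00195), and nfil3-5 changed by 0.78 ± 0.10. klf2a changed by -1.22 ± 0.17 and gfi1ab, a repressor related to gfi1b, by -1.05 ± 0.13. The early growth response genes were lower. egr1 read 10.29 and 10.43 against 12.11 and 12.33, 3.62-fold lower (adjusted p = 9.03e-05), egr2b changed by -2.38 ± 0.13, egr2a by -2.10 ± 0.25 and egr3 by -1.36 ± 0.16. Of 42 immediate early and heat shock genes 14 were lower and 3 higher (5 higher after quantile normalization).

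Clock genes included the largest rise of the comparison. noctb, a nocturnin whose RNA cycles with the day in other vertebrates, read 10.21 and 10.62 in myelomonocytes and 7.01 and 8.08 in marrow, 7.30-fold higher (2.87 ± 0.38, adjusted p = 0.00116). The marrow arrays differed from each other, and both myelomonocyte arrays lay above both of them, as in 4996 of all 13774 genes tested. nr1d1, a repressor of the clock, was lower at 9.16 and 8.92 against 10.47 and 10.43 (-1.41 ± 0.10), as were cry3a at -1.42 ± 0.13, bhlhe40 at -1.36 ± 0.13, rorab at -0.94 ± 0.10 and dbpa at -0.75 ± 0.09. Of 36 clock genes 14 were lower and 6 higher (7 lower without myelomonocyte replicate 1 or marrow replicate 2). The labels do not give the time of day at which a sample was taken. Genes of survival and stress were called at rates near those of all genes, with 6 of 29 higher and 7 lower. sesn1, a stress-induced inhibitor of growth signalling, changed by -1.88 ± 0.18 and bcl2l10, an inhibitor of apoptosis, by -1.76 ± 0.14, while gadd45aa and sesn3 were higher by 1.18 ± 0.14 and 1.00 ± 0.13.

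**Figure D4:**
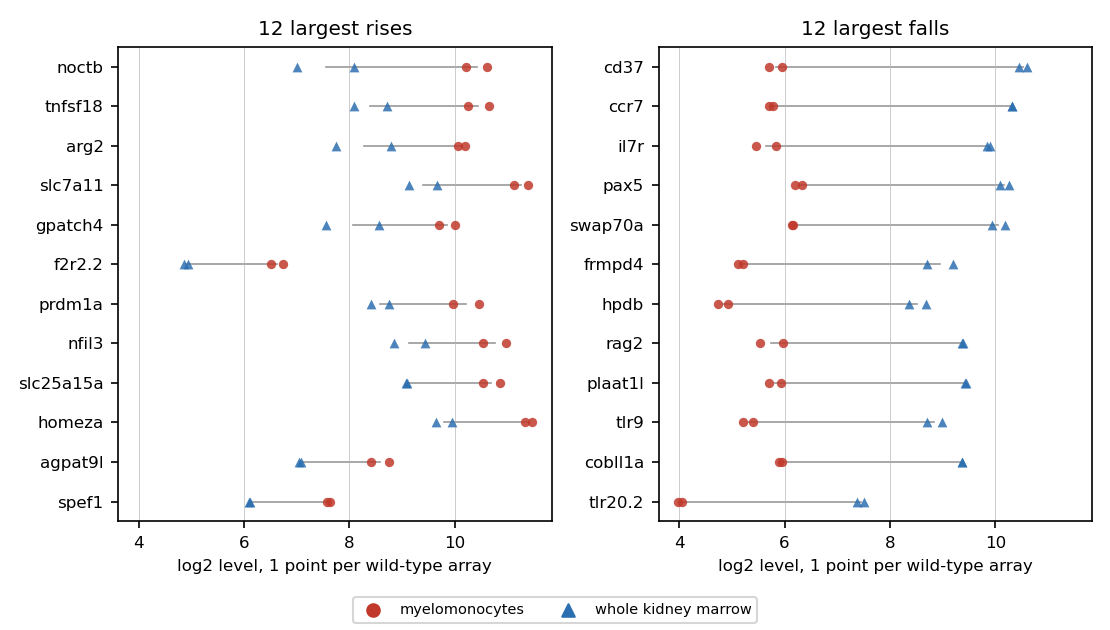
Log2 level in each of the 4 wild-type arrays for the 12 genes with the largest called rise and the 12 with the largest called fall, as named by symbol (red circles, myelomonocytes; blue triangles, whole kidney marrow; lines join the group means). For the genes that were lower, the 2 arrays of a group lie close together beside the gap between groups, and for noctb, arg2 and gpatch4 the marrow arrays lie up to 1.07 apart.

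Among other genes with a large rise, tnfsf18, a ligand of the TNF family, read 10.24 and 10.66 against 8.08 and 8.72, 4.14-fold higher (adjusted p = 0.000959). homeza, a homeobox gene, changed by 1.60 ± 0.16, soat1, which esterifies cholesterol, by 1.47 ± 0.13, atp8b4, a lipid flippase, by 1.39 ± 0.15 and agpat9l, an acyltransferase of glycerolipid synthesis, by 1.51 ± 0.14. spef1, a cilium and flagellum gene, was higher by 1.51 ± 0.10 and foxq1a, a forkhead factor, by 1.51 ± 0.34, and the call of foxq1a was lost on leaving out myelomonocyte replicate 1 or marrow replicate 2 (adjusted p up to 0.0591). f2r2.2 was higher by 1.72 ± 0.15, from a marrow mean in the dim range. gpatch4 changed by 1.79 ± 0.29 and zfand6 by 1.48 ± 0.21. Outside the lymphocyte lists, foxo1b, a forkhead factor, was 9.32-fold lower and the chemokine ccl34b.4 8.97-fold. sftpba read 6.70 and 7.10 against 10.28 and 10.30 (-3.39 ± 0.18), and plaat1l, cobll1a and frmpd4 changed by -3.61 ± 0.19, -3.45 ± 0.28 and -3.78 ± 0.29, with the myelomonocyte mean of frmpd4 in the dim range. hpdb, a dioxygenase of tyrosine breakdown, was lower at 4.73 and 4.92 against 8.68 and 8.36 (-3.70 ± 0.15), with both myelomonocyte arrays in the dim range, so its fold is set by background on that side.

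Solute carriers were called at about the shares of all genes tested (15.5% higher, 20.1% lower), with 47 of 274 solute carriers higher and 45 lower (25 to 33 higher with any 1 of the 4 arrays left out, 26 lower without myelomonocyte replicate 2, 24 lower without marrow replicate 1). slc44a4, of a choline transporter family, was higher by 1.14 ± 0.11 and slc6a7 by 0.94 ± 0.10, while slc25a26, the mitochondrial carrier of S-adenosylmethionine, changed by -1.21 ± 0.11. Of 63 potassium and chloride channel genes 18 were higher and 6 lower (6 to 11 higher with any 1 of the 4 arrays left out), with kcnk18 at 0.95 ± 0.12, clic3 at 0.99 ± 0.13 and kcnk1b, a potassium leak channel, at -2.13 ± 0.16. Among regulators of small GTPases 18 of 72 were higher and 16 lower (10 higher without myelomonocyte replicate 2, 11 higher without marrow replicate 2), with arhgap24 at -2.01 ± 0.23 and arhgef3l at 0.80 ± 0.10. ptpra, a receptor phosphatase, was 2.19-fold higher, while ptpn4b changed by -1.62 ± 0.13 with its myelomonocyte mean in the dim range.

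The same 2 populations were also sampled from knockout fish, and those 4 arrays share no sample with the wild-type contrast, although the fit shares 1 variance per gene. Of the 860 genes that differed by at least 2-fold in wild type, 842 (97.9%) had the same direction between the knockout populations, and 797 were also called there. Over all genes tested, 82.0% had the same direction and 44.1% were called in the knockout. cd37 changed by -4.12 in the knockout, ccr7 by -3.93, irf8 by -2.32, csf1rb by -1.31, cxcr1 by 0.58 and cdh5 by 0.73. The 860 genes were 181 higher and 679 lower, and these shares were not split by direction. Each of the 20 largest named rises, picked for their size in wild type, was smaller in the knockout. Among them noctb was at 0.38, nfil3 at 0.07 and arg2 at 0.19, and outside them csf3b was at -0.17. Most of the 20 largest named falls were smaller too, with frmpd4 and sftpba larger. For noctb, knockout marrow read 10.30 and 10.30, against 7.01 and 8.08 in wild-type marrow. noctb was not alone in this, with tnfsf18 at 9.48 and 9.32 against 8.08 and 8.72, and arg2 at 10.14 and 9.75 against 7.75 and 8.80. Both knockout marrow arrays lay above both wild-type marrow arrays for each of the 20 rises except slc7a11, foxq1a, slc16a3b, soat1 and atp8b4. Picking genes for a large wild-type rise favours low wild-type marrow arrays, so the choice of genes tilted this count in advance. The share over all genes was not counted, and no conclusion is drawn from it. Myelomonocyte levels differed too. In the knockout soat1 read 8.72 and 8.98 against 9.46 and 9.49 in wild type, and nfil3 9.83 and 9.88 against 10.54 and 10.97. agpat9l went the other way, at 9.22 and 9.46 against 8.40 and 8.75. Smaller changes in the knockout thus came with a higher marrow level, a lower myelomonocyte level or both, depending on the gene. The cause was not tested. The difference between genotypes did not pass for noctb, nfil3, arg2 or csf3b (adjusted p = 0.130, 0.135, 0.285 and 0.137). The difference between the genotypes passed for 38 genes, 0.276% of those tested, 18 of them with a lower and 20 with a higher change in wild type. That count rested on each wild-type array, since leaving out myelomonocyte replicates 1 and 2 and marrow replicates 1 and 2 in turn left 1, 1, 1 and 2 genes.

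**Figure D5:**
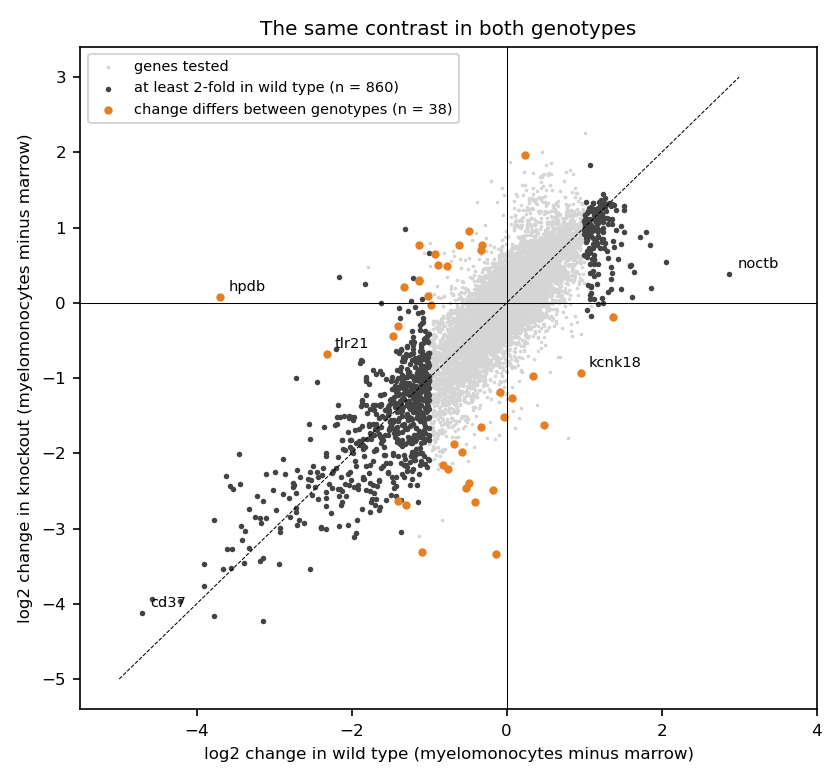
Log2 change between myelomonocytes and whole kidney marrow in wild-type arrays (horizontal axis) and in knockout arrays (vertical axis), 2 arrays per population and genotype. Grey points are all genes tested, dark points the 860 called by at least 2-fold in wild type, and orange points the 38 whose change differed between genotypes. Of the dark points 842 have the same sign on both axes. hpdb lies far below 0 in wild type and near 0 in the knockout, where both populations read in the dim range.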

How the data were processed

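RNA of 8 samples (4 groups of 2) was labelled with biotin from 200 ng of total RNA and hybridised to 1-colour Affymetrix whole-transcript arrays, per the labels' protocols. The authors deposited log2 probe set values for 75212 probe sets. The sources used here do not give their background correction, probe summary or normalization. The number of arrays limits the precision. Probe sets with 1 gene symbol in the platform annotation (20806) were kept, and those with several (855) or none here (53551) were set aside. Of those kept, 20323 matched a current gene by Entrez ID, and 1 symbol was updated. Of 19260 genes, 1365 had more than 1 probe set, and the brightest was taken. Genes whose mean over all 8 arrays was under 5.52, the median of that mean over all probe sets, were set aside (5486 genes), which left 13774. That level stands in for background, because the files hold no detection call.

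The deposited values were fitted with limma 3.58.1 in R 4.3.3 (lmFit with 1 mean per group, contrasts, eBayes) over all 8 arrays (4 residual degrees of freedom), and p-values were adjusted by the method of Benjamini and Hochberg over all genes tested. An adjusted p under 0.05 made a call. Simulated data had 2 arrays per group, independent noise and 50 genes changed by each of -2, -1, 1 and 2 log2 units. Of genes lowered and raised by 1 log2 unit, 80% and 82% were recovered. There were 7 false calls among the unchanged genes of the 13774. Far more genes were called in the data (35.6%), and same-numbered wild-type arrays deviated together. These rates therefore do not carry over to the data. Promoter and protein sequences were not used here.

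The groups, the 56 gene lists and the tests were chosen with earlier results of these data known. Named genes were drawn from the 20 largest called changes in each direction with no overlap of arrays, the 6 genes of lowest p in each list, and the defining markers of each cell type, with placeholder names passed over. Alternatives were the 4 wild-type arrays alone, a replicate block, quantile normalization, median centring, other filters on dim genes, the mean of probe sets, array weights, a trended robust fit, and leaving out each wild-type array.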

Additional observations from a re-analysis of the deposited data

Results flagged for a closer look

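For the genes below, the difference between myelomonocytes and marrow was not the same in wild-type and miR-142-3p knockout fish by limma's test of that difference (2 arrays per population and genotype). Each difference is the wild-type log2 change minus the knockout log2 change, with its standard error. hpdb, a dioxygenase of tyrosine breakdown, changed by -3.70 ± 0.15 in wild type and by 0.08 in the knockout, a difference of -3.77 ± 0.21 (adjusted p = 0.00115). Its myelomonocyte arrays read 4.73 and 4.92 in wild type and 4.29 and 4.56 in the knockout, where the marrow arrays read 4.40 and 4.29. All of these lie below the level used for dim genes (5.52), so the knockout change compares background with background, and the size of the difference is measured against background. hpdb passed the filter on dim genes only through its wild-type marrow arrays, at 8.68 and 8.36, the group where it was high. The test of its difference therefore rests on that group. tlr21, a receptor of microbial DNA, changed by -2.32 ± 0.13 and -0.69, a difference of -1.64 ± 0.18 (adjusted p = 0.0268). anxa1a, an annexin, changed by -1.13 ± 0.13 and 0.30, a difference of -1.43 ± 0.18 (adjusted p = 0.0349). parp9, an interferon-stimulated gene, changed by -0.89 ± 0.09 and 0.50, a difference of -1.39 ± 0.13 (adjusted p = 0.0134). Its knockout marrow arrays read 5.22 and 5.13, in the dim range, and its knockout myelomonocyte arrays 5.69 and 5.66. The knockout change of parp9 is therefore measured from background. socs1b, a suppressor of cytokine signalling, changed by -1.13 ± 0.17 and 0.77, a difference of -1.90 ± 0.24 (adjusted p = 0.0353). The wild-type myelomonocyte mean of socs1b lay in the dim range. For these 5 genes the change from marrow to myelomonocytes was the lower one in wild type. kcnk18, a potassium channel, changed by 0.95 ± 0.12 in wild type and by -0.94 in the knockout, a difference of 1.89 ± 0.17 (adjusted p = 0.0134). mllt3, a chromatin factor of stem cells in mammals, changed by -1.30 ± 0.14 and -2.68, a difference of 1.38 ± 0.19 (adjusted p = 0.0462). Leaving out any 1 of the 4 wild-type arrays left 1 or 2 genes in all with such a difference, so most of these calls rest on having both arrays of each wild-type group.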

How the results depend on the processing

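Of 241 genes named in the text 227 were called, and 214 of these were called under each alternative run in which they were tested. The 11 that lost their call only with an array left out are named in the text, beside others lost otherwise. Across 3571 comparisons of a named gene with an alternative, 38 lost a call, 31 gained one and 2 changed sign. These were cybb and ikzf1, neither called, both below 0 without myelomonocyte replicate 1, and with single arrays left out cybb ran from -0.023 to 0.13 and ikzf1 from -0.041 to 0.27. With single arrays left out, the number of genes called was 2950 to 3371, of which 1212 to 1316 were higher and 1701 to 2055 lower, from fits in which 1 group had 1 sample. The filter at the 75th percentile gave 380 genes lower by at least 2-fold among fewer genes tested (8330). The number of genes whose change differed between genotypes was 1 to 2 with single arrays left out, 24 after quantile normalization and 112 in the trended robust fit. The cause was not tested. With the replicate block 5344 genes were called over all 8 arrays and 6599 over the 4 wild-type arrays, and 77 differed between genotypes. The labels do not say that the numbers pair samples, and same-numbered wild-type samples deviated together at r = 0.405 and knockout samples at 0.267. Quantile normalization changed the share of calls that were higher from 43.6% to 58.2%. Medians of 10 of 56 lists changed sign under at least 1 alternative, among them the chemoattractant receptors at 0.04 after quantile normalization. Dim genes limit fold sizes, since 81 of the 679 genes lower by at least 2-fold had a myelomonocyte mean under 5.52.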

Other observations

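Many zebrafish genes exist as an a and a b copy, whose symbols differ only in the last letter. Over 1408 pairs of such symbols with both genes tested, both were called in 216. The symbols alone also pair genes that are not zebrafish copies of each other, such as tbca with tbcb and clta with cltb, so these are counts of symbol pairs. They went the same way in 145 pairs and opposite ways in 71 (32.9%), and in 34 of these each gene changed by at least 0.5 log2 units. Of all genes called, 43.6% were higher and 56.4% lower, so unrelated called genes would often go opposite ways too. Most pairs went the same way, and only opposite pairs are named below. The pairs named here were chosen after their values were seen, and no test was made of the count. slc25a15a, a mitochondrial ornithine carrier, was higher in myelomonocytes by 1.61 ± 0.16 while slc25a15b changed by -1.35 ± 0.15. snx18a, a sorting nexin, was higher by 1.09 ± 0.19 and snx18b changed by -2.86 ± 0.24. The mannose receptor copies mrc1a and mrc1b changed by 1.03 ± 0.20 and -1.96 ± 0.24, and the acid phosphatases acp5a and acp5b by 1.04 ± 0.11 and -0.97 ± 0.13. The cytokine signalling inhibitors socs1a and socs1b changed by 0.94 ± 0.10 and -1.13 ± 0.17, with the myelomonocyte mean of socs1b in the dim range. The B cell repressor copies bach2a and bach2b changed by 0.79 ± 0.12 and -1.40 ± 0.12.

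Of 43 Hox genes with a probe set, 12 were bright enough to test, of which 4 were higher and 0 lower, and with single arrays left out the number higher was 0 to 3. Of 19 subunits of the vacuolar proton pump, which acidifies lysosomes, 2 were higher and 4 lower, and at most 1 was called in either direction with an array left out. Of 25 collagen genes 2 were higher and 1 lower, and 0 to 1 were higher and 0 to 1 lower with single arrays left out. Among 13 genes of crystallins, globins and yolk proteins 1 was called, crybg2 at 1.31 ± 0.16.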
